A study of Mus musculus with 10 samples.

Results

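The genes described here are 10 genes of the Notch pathway, and the data are the binding sites of p63 around them in mouse keratinocytes. They are the receptors Notch1, Notch2 and Notch3, the ligands Jag1, Jag2 and Dll1, the target genes Hes1 and Hey1, the nuclear effector Rbpj and the receptor-modifying enzyme Lfng. All 10 were found in the annotation. A site, or peak, belongs to a gene here if its midpoint lies inside the gene or within 100 kb of either end. This gave 37 of the 8451 peaks in the list, and no peak was shared between genes. The peak list holds positions alone, made from p63 ChIP-seq libraries of the mouse keratinocyte lines MK1 and MK2 jointly. Both lines are labelled as similar keratinocyte cell lines, with no treatment, strain or age given, and the antibody was 4A4. The series also has libraries of H3K4me1, H3K4me3, H3K27ac and input from both lines, 10 libraries in 5 groups of 2, and those 8 other libraries were not analysed here.

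p63 is a relative of p53 that basal keratinocytes need. Notch is a receptor that a ligand on a neighbouring cell activates. Proteases then cut it, and the freed intracellular part enters the nucleus and joins the DNA-binding protein RBPJ to switch on genes such as Hes1. In the epidermis, Notch signalling promotes the step from basal to differentiating cells.

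The list has no peak height, score or p-value, so read depth is unknown and no difference between MK1 and MK2, and no error between replicates, can be given for any value below. A place without a peak is a place without a called peak. All positions are 1-based on mm10. Gene ends come from RefSeq (GRCm38.p6), and a gene end is called lower or upper by its coordinate. Whether any of these genes responds to p63 binding nearby was not measured.

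Most of these genes had p63 peaks nearby, and many of the peaks stood in groups. Of the 10 genes, 9 had a peak inside or within 100 kb (90%, 95% Wilson interval 59.6 to 98.2, counting error only), all but Hey1. Among all 21779 protein-coding genes the share was 55.2%. The 10 genes were chosen with earlier results of these data known and were not drawn at random. The interval is therefore no test against other genes. With a limit of 50 kb, 7 genes had a peak (40.7% of all genes). With 25 kb there were 6 genes (29.7%), and 3 had a peak in the body (13.4%). The median number of peaks per gene was 3.5 for the 10 genes and 1 for all protein-coding genes. The median gene length was 28.5 kb for the 10 and 17.2 kb for all, which gives the 10 slightly longer windows. Of the 37 peaks, 5 (13.5%) were inside one of the 10 genes, 7 (18.9%) were outside within 25 kb, and 25 (67.6%) lay at 25 to 100 kb. Over all protein-coding genes, with a peak counted once for each gene it is near, these shares were 15.5%, 21.4% and 63.1%, so the 10 genes were close to the rest. The outermost peak counted was 99.6 kb from Dll1, and the first beyond the limit was 109.0 kb from Jag1.

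Ordered by their number of peaks, the genes were Jag2 with 10, Dll1, Hes1 and Lfng with 5 each, Notch1 with 4, Jag1 with 3, Notch2 and Notch3 with 2 each, Rbpj with 1 and Hey1 with 0. Neighbours in this order differ by 5 peaks at the top and by at most 1 elsewhere, and with 1 list there is no spread to set such a step against. As many peaks as Jag2 has, or more, were found at 0.225% of protein-coding genes. Counts of 5 or more, which 4 of the 10 genes had, were found at 6.76%, and 3 or more at 20.3%.

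**Figure D1:**
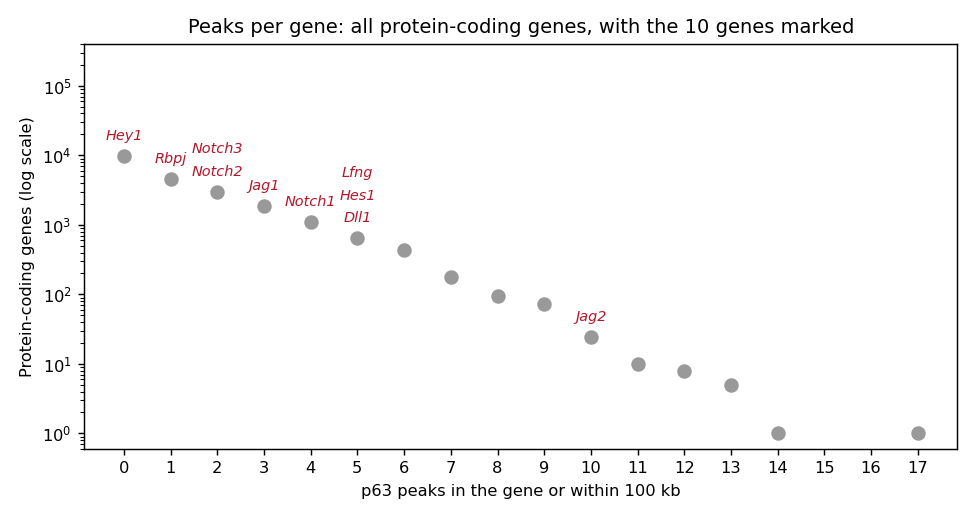
Number of p63 peaks inside a gene or within 100 kb (horizontal axis) against the number of protein-coding genes with that count (vertical axis, log scale). Grey points are all 21779 protein-coding genes and red names mark where the 10 Notch pathway genes fall, from Hey1 at 0 to Jag2 at 10.

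No peak lay at a start site of these genes. RefSeq promoter windows, from 250 bases before a start to 50 after it, were at hand for 8 of the 10 genes, 10 windows in all, and 0 of the 10 overlapped a peak. That count of 0 allows up to 30.0% (3 counts of 10, counting error only). Of 21263 such windows of protein-coding genes, 242 (1.14%) did, so 10 windows cannot show a difference. The bases under the peaks were not analysed here. The 250 bases before the start are shown for Jag1, Jag2 and Lfng, because these are the genes with a peak in the body, and for Rbpj, because among these windows its own alone held a p53 family half-site. They run 5′ to 3′ on the gene's strand. Capitals mark exact matches, on either strand, to that half-site, the RBPJ motif TGGGAA or the AP-1 motif TGANTCA.
Jag1 (chr2:137116521-137116770, minus strand): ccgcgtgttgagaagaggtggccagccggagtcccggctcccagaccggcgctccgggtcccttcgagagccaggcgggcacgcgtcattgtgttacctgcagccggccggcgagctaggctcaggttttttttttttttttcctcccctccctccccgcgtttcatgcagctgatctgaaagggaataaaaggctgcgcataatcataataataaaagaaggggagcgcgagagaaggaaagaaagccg
Jag2 (chr12:112929496-112929745, minus strand): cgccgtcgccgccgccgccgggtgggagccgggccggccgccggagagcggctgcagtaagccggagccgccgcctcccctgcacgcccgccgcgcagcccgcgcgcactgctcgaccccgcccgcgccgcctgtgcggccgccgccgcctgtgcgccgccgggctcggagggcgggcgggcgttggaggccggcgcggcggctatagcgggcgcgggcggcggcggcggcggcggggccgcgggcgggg
Lfng (chr5:140607091-140607340, plus strand): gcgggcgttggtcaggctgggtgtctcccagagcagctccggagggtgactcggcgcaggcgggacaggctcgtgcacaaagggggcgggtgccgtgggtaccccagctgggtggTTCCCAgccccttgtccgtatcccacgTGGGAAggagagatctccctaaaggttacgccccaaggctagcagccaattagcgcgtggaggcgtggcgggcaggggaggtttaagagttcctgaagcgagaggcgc
Rbpj (chr5:53590236-53590485, plus strand): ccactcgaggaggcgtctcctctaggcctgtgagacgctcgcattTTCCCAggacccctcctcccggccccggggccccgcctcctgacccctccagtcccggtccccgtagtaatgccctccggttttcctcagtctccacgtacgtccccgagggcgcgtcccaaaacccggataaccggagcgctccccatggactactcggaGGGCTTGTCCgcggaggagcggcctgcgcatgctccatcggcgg

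The Lfng window held the RBPJ motif in both directions, at 135 to 130 and at 108 to 103 bases before the start. Both Rbpj windows held it too, sharing 1 match because they overlap, so 3 of 10 windows had it against 20.9% of all windows. The half-site at Rbpj lay 44 to 35 bases before the start used above. It was in 1 of 10 windows, against 6.31% of all. AP-1 was in 1 of 10, 109 bases before the upper start of Dll1, against 6.13%. The looser core of the full p53 family site, which a pair of half-sites contains (a C and a G with 2 bases between them, and the same again after 6 bases), was in 9 of 10 windows and in 68.5% of all. None of these matches lay under a peak. The Jag2 window was 87.2% G and C, and those shown for Jag1, Lfng and Rbpj were 57.2%, 66% and 68.4%, where the median window had 55.6%. The core fixes only C and G bases, and windows of like base content were not compared.

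Among the receptors, Notch1 and Notch2 had no peak within 25 kb, and Notch3 had 1. Notch1, the receptor best known for driving keratinocyte differentiation, is 45.9 kb long and had 4 peaks, with none in its body and none within 25 kb. They formed 1 group of 8.38 kb at 26548340 to 26556720 on chromosome 2, 44.6 to 52.7 kb upstream of the Notch1 start. Their widths, in order away from Notch1, were 255, 284, 549 and 479 bp, and the steps between their midpoints were between 2.31 and 3.23 kb. The nearest protein-coding gene of all 4 was Egfl7, which encodes a secreted EGF-domain protein, at 24.6 to 32.6 kb. The group stood in the 77.3 kb between the ends of Notch1 and Egfl7. Of 19643 intervals of any length between neighbouring protein-coding genes, 168 (0.855%) held 4 or more peaks. Among the 2375 intervals between 1.5 times shorter and 1.5 times longer, 19 did, and their median was 0.

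Notch2, the second of the receptors, had 2 peaks, both upstream. Their positions on chromosome 3 were 97935095 to 97935367 (273 bp) and 97937901 to 97938370 (470 bp), or 78.3 and 75.4 kb below the gene. Their midpoints were 2.90 kb apart, and both lay inside the gene Gm5544, 5.06 and 7.96 kb from its lower end. No peak lay in the 136.8 kb body of Notch2 or in the 46.5 kb between it and Gm5544.

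Notch3, which is also made in basal keratinocytes and in vascular smooth muscle, had 2 single peaks on its downstream side. The closer, at 32110419 to 32110639 on chromosome 17, was 221 bp wide and 10.3 kb beyond the gene's lower end, and Notch3 was its nearest gene. The other, at 32073432 to 32073745 (314 bp), was 47.2 kb away and nearer to Rrp1b, a gene of ribosome biogenesis. They stood 36.9 kb apart, so Notch3 alone of the 3 receptors had ungrouped peaks.

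**Figure D2:**
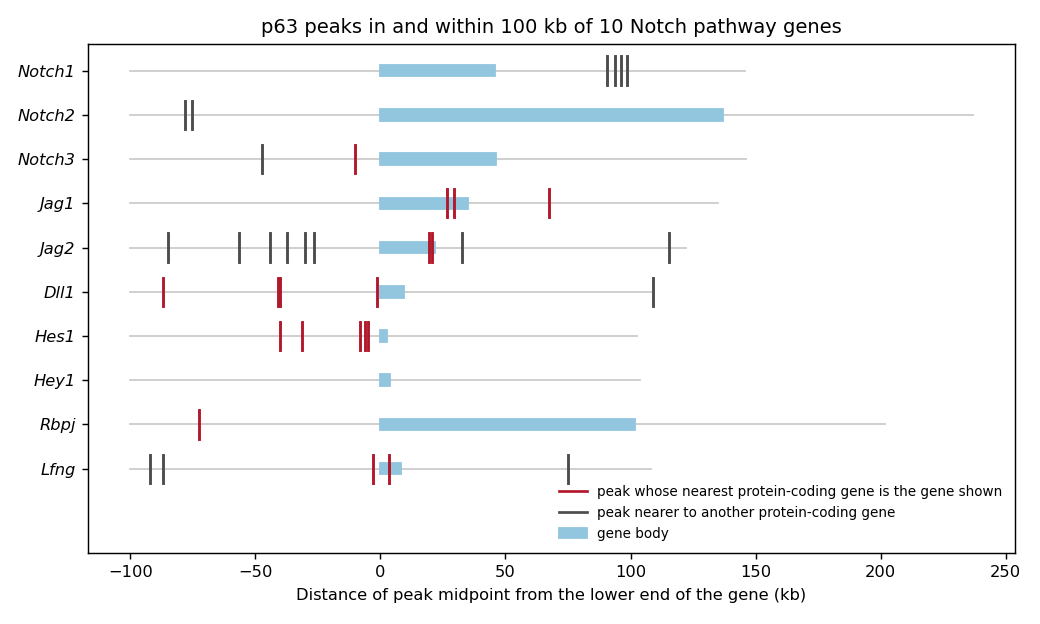
Peaks in and within 100 kb of each gene, by distance of the peak midpoint from the gene's lower end (kb). Blue bars are gene bodies, red lines are the 18 peaks whose nearest protein-coding gene is the gene shown and dark lines the 19 peaks nearer to another gene. Peaks of Notch1 and Notch2 stand far outside the body, those of Hes1 all on its lower side.

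The 3 ligand genes had 10, 5 and 3 peaks, each in its own arrangement. Jag2, a ligand of basal keratinocytes, had 2 peaks inside the gene, close behind its start. One spanned 112928237 to 112928694 on chromosome 12 (458 bp), 1.03 kb from the start site. The other spanned 112926851 to 112927804, 2.17 kb from the start. At 954 bp it was number 37 in width among all 8451 peaks. Only 432 bp of DNA separated them.

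The other 8 peaks in the Jag2 window were nearer to other genes. Downstream, 5 had Gpr132, which encodes a G protein-coupled receptor, as nearest gene, and 4 of these formed a group of 17.9 kb at 112863631 to 112881511. The first of the group lay inside Gpr132 and was 305 bp wide, and the next was 223 bp wide. The 2 closest to Jag2, 30.0 and 26.7 kb from it, were 569 and 729 bp wide. The fifth, at 112851264 to 112851492 (229 bp), was inside Gpr132, 0.505 kb from its lower end. A 518 bp peak at 112822623 to 112823140 was inside Cdca4, 2.65 kb from its end. Upstream of Jag2, a 308 bp peak at 112940276 to 112940583 was 10.6 kb away and inside Nudt14, and a 273 bp peak at 113023152 to 113023424 was 93.5 kb away and inside Pacs2. Of the 10 peaks counted for Jag2 within 100 kb, 2 were thus nearest to Jag2 itself, and why its count was high was not tested.

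Jag1 had fewer peaks within 100 kb than Jag2, but was the nearest gene of many farther away. This ligand has 2 peaks in its body at 137110566 to 137110944 (379 bp) and 137108097 to 137108359 (263 bp) on chromosome 2, 5.77 and 8.29 kb behind the start. Another, at 137148849 to 137149143 (295 bp), lay 32.5 kb upstream. Within 100 kb that was all, but 13 more peaks beyond this limit had Jag1 as their nearest protein-coding gene, which makes 16. Jag2 could not have such peaks, because its neighbours Gpr132 and Nudt14, 39.4 and 4.48 kb away, would be nearer to them. No more than 3 of the 21779 protein-coding genes were the nearest gene of 16 or more peaks, and the highest count was 22. A gene was nearest to at least 1 peak in 21.8% of cases, and 7 of the 10 Notch pathway genes were.

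The 13 distal peaks of Jag1 lay 109.0 to 490.5 kb upstream of the gene. Only on this side can such distant peaks have Jag1 as nearest gene, since Slx4ip adjoins its other end. A gap of 145.6 kb divided them into 3 closer and 10 farther peaks. The closer peaks lay at 109.0, 137.6 and 146.5 kb, with widths of 329, 214 and 321 bp. The farther ones began with peaks of 310 and 441 bp at 292.1 and 297.1 kb, in a pair, and went on with one of 341 bp at 314.5 kb. Next came the widest, a 701 bp peak at 137455497 to 137456197, 339.3 kb from Jag1 and number 184 in width in the whole list, and then one of 434 bp at 378.6 kb. Another 5 peaks followed from 411.9 to 490.5 kb. The last 3 of them, of 179, 438 and 212 bp, stood within 8.90 kb at 137598207 to 137607103, and the last pair of midpoints were 1.04 kb apart. The 13 had a median width of 329 bp and a median step of 26.7 kb, and the 12 steps ranged from 1.04 to 145.6 kb.

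These peaks lie in a long interval without protein-coding genes, which by itself makes Jag1 the nearest gene over a long distance. The interval runs 1140 kb from Jag1 to Btbd3, which encodes a BTB-domain protein, and its midpoint is 570.0 kb from Jag1. It held 17 peaks, 14 nearer to Jag1 and 3 nearer to Btbd3. Those 3 were 605.7, 691.3 and 1125 kb from Jag1, so the peaks were denser on the Jag1 side. The whole interval had 1.49 peaks per 100 kb. All intervals between protein-coding genes together had 0.242, and the 695 intervals of 500 kb or more had 0.0967 with a median of 0 peaks. Of those 695, 2 including this one held as many peaks as this one or more. On the other side of Jag1, 0.099 kb separates it from Slx4ip, and no peak lay there. That gap is shorter than the narrowest peak in the list (138 bp), so the 2 sides cannot be compared. Peaks farther out on that side would be nearer to Slx4ip than to Jag1.

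**Figure D3:**
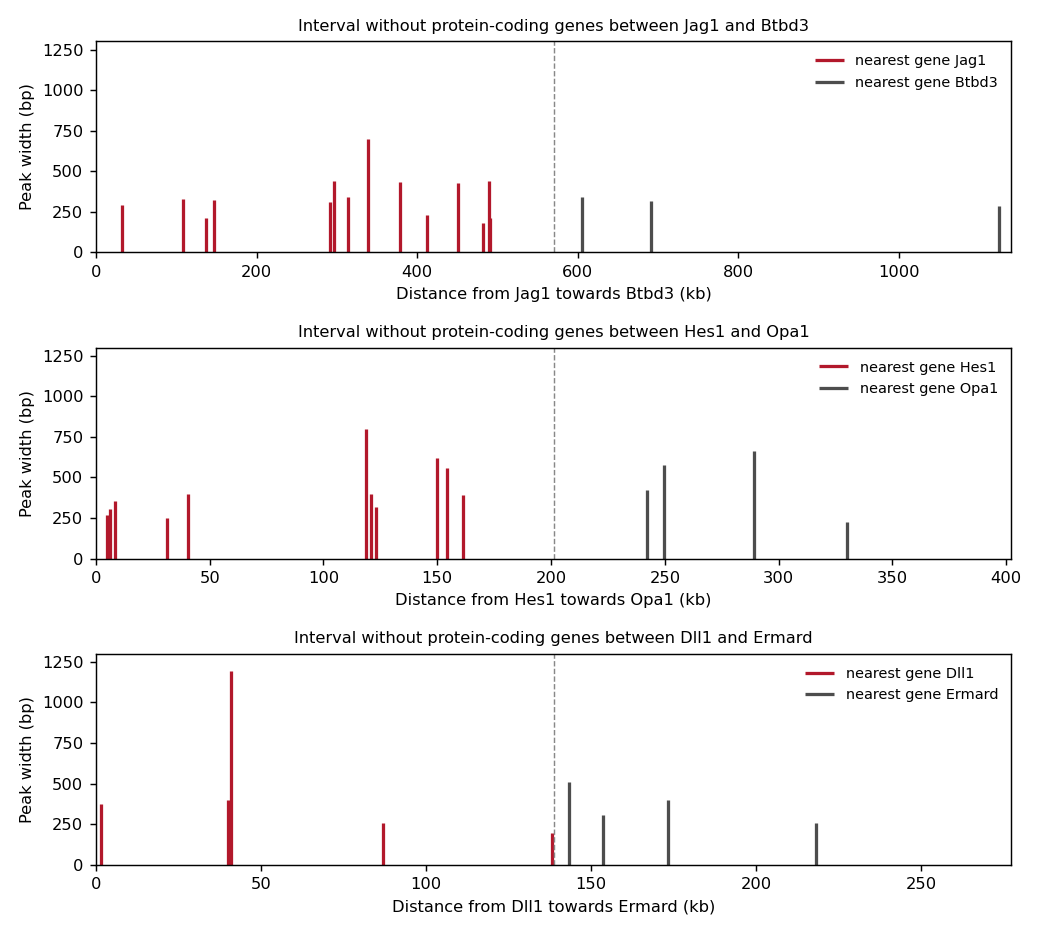
Width (bp, vertical axis) of each peak in the interval between Jag1 and Btbd3, Hes1 and Opa1, and Dll1 and Ermard, against distance from the Notch pathway gene (kb). Red lines are peaks nearest to Jag1, Hes1 or Dll1, dark lines are nearest to the gene on the other side, and the dashed line is the middle of the interval. Jag1 has 14 red and 3 dark peaks, Hes1 has 11 and 4, and Dll1 has 5 and 4.

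Dll1, a ligand of the Delta type, had peaks almost only on its downstream side. The nearest, at 15365715 to 15366086 on chromosome 17 (372 bp), lay 1.45 kb beyond the lower end. At 40.1 and 41.0 kb stood a pair of 396 and 1195 bp, at 15327070 to 15327465 and 15325713 to 15326907, with 162 bp between them. The 1195 bp peak was number 7 in width in the whole list and the widest at any of the 10 genes. A 260 bp peak followed at 87.0 kb (15280177 to 15280436). The one upstream peak, at 15476420 to 15476649 (230 bp), was 99.6 kb away and inside Psmb1, a proteasome subunit gene, 0.814 kb from its end. Beyond 100 kb, a 198 bp peak at 15229076 to 15229273, 138.2 kb from Dll1, had Dll1 as nearest gene by a small margin, since the middle of the interval to Ermard is at 138.7 kb. That interval of 277.3 kb held 9 peaks, and 17 of 19643 intervals of any length (0.0865%) held as many or more. Among the 947 intervals between 1.5 times shorter and 1.5 times longer, 5 did, and their median was 0.

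Hes1, which encodes a transcriptional repressor and is a classical target of Notch, had peaks on its lower side alone. The gene is 2.44 kb long with no peak in its body. A group of 3 on chromosome 16, from 30056974 to 30060529, was 8.21, 6.18 and 4.96 kb below the gene, with widths of 352, 304 and 270 bp. Peaks of 252 and 400 bp followed at 31.2 and 40.3 kb (30034036 to 30034287 and 30024810 to 30025209). All 5 had Hes1 as nearest gene. In the 188.6 kb on the other side, up to Cpn2, there was no peak.

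Farther out, 6 more peaks had Hes1 as nearest gene, in 2 groups of 3. One group spanned 4.82 kb at 29942167 to 29946986, 118.8 to 123.0 kb away, with widths of 315, 400 and 798 bp. The 798 bp peak, the closest of these to Hes1, was number 87 in width in the list. The other group spanned 12.2 kb at 29903775 to 29915952, 149.7 to 161.4 kb away, with widths of 391, 558 and 617 bp. With 11 peaks, Hes1 was among 8 protein-coding genes that were nearest to 11 or more. The interval to Opa1, a gene of mitochondrial fusion, is 402.2 kb long and held 15 peaks, of which 4 were nearer to Opa1. Its 3.73 peaks per 100 kb compare with 0.242 over all intervals. Among the 719 intervals between 1.5 times shorter and 1.5 times longer, it was the only one with 15 or more, and their median was 0. The comparisons of intervals were chosen after these peaks had been seen.

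**Figure D4:**
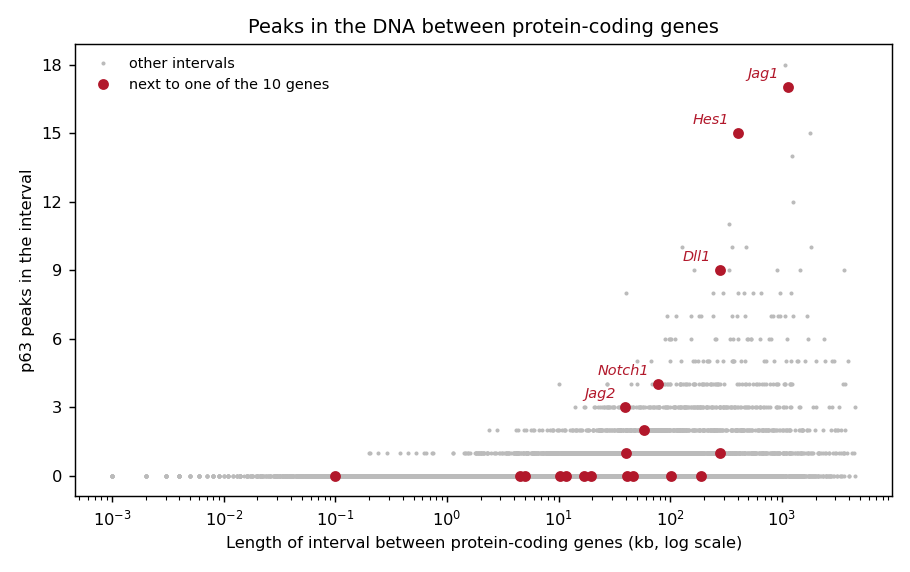
Number of peaks (vertical axis) in each of 19643 intervals between neighbouring protein-coding genes, against interval length in kb (log scale). Red points are the intervals next to one of the 10 genes, named where they hold 3 or more peaks. Those of Jag1 (17 peaks) and Hes1 (15) are among the 4 intervals of the genome with 15 or more.

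Hey1, the other target gene studied here, which encodes a related repressor, was the gene without a peak. The closest peak, at 8919841 to 8920078 on chromosome 3, was 252.9 kb away. The interval of 101.8 kb between Hey1 and Stmn2 held none.

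Rbpj, which encodes the DNA-binding partner of the cut receptor, had 1 peak. It spanned 53482996 to 53483315 on chromosome 5 (320 bp), 72.6 kb beyond the lower end of the 101.7 kb gene. Because RefSeq places the first start site with a promoter window inside these gene ends, its distance upstream of a start was 107.2 kb. No other peak lay within 216.3 kb of it, which makes it the most isolated of the 37.

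Lfng, which encodes the glycosyltransferase Lunatic fringe that adjusts which ligands a Notch receptor answers to, had a peak on either side of its start. A 236 bp peak at 140604440 to 140604675 on chromosome 5 was 2.78 kb upstream. An 897 bp peak at 140610203 to 140611099 was 3.31 kb downstream of the start, inside the gene, and was number 46 in width in the list. A pair at 140515013 to 140515416 (404 bp) and 140519974 to 140520517 (544 bp) lay 92.1 and 87.1 kb upstream, inside Chst12. The last, at 140682079 to 140682403 (325 bp), was 66.7 kb downstream, inside Iqce.

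For the 8 genes with a strand in the promoter table, 14 of their 32 peaks were upstream, 13 downstream and 5 inside. The 5 peaks of Hes1 are not among these. By coordinate, which covers all 37, 23 peaks were below a gene and 9 above, with the 5 of Hes1 all below. Single genes were lopsided: all 4 of Notch1 and both of Notch2 were upstream, and both of Notch3 and 4 of 5 of Dll1 were downstream. A member gene was the nearest protein-coding gene of 18 of the 37 peaks, and another gene was nearer to 19.

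Widths spread from 221 to 1195 bp. The median was 320 bp, with quartiles of 270 and 470 bp, against 305 bp and quartiles of 242 and 392 bp in the whole list. Of the 37, 14 (37.8%) were wider than the upper quartile of the list, which 24.9% of all peaks were. The 5 peaks inside genes were 263 and 379 bp wide in Jag1, 458 and 954 bp in Jag2 and 897 bp in Lfng. Within 100 kb, no peak of Jag1 (263 to 379 bp), Notch3 or Rbpj was wider than the upper quartile of the list.

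**Figure D5:**
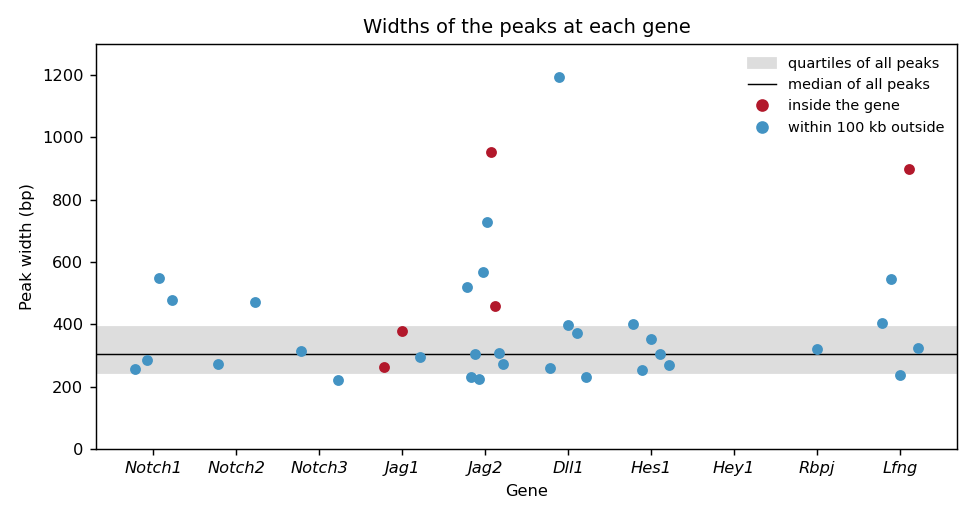
Width (bp) of each peak in or within 100 kb of the 10 genes. Red points are inside the gene and blue points outside it, the line is the median of all peaks (305 bp) and the band their quartiles (242 to 392 bp). Dll1 (1195 bp), Jag2 (954 bp) and Lfng (897 bp) have the widest peaks, and Hey1 has none.

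Grouping was common. A neighbouring peak within 10 kb was found for 25 of the 37 peaks (67.6%, 95% Wilson bounds 51.5 and 80.4). In the whole list this was so for 2459 of 8451 (29.1%). The interval treats peaks as independent, which peaks of 1 group are not. The median distance to the next peak was 5.03 kb, and 28.4 kb in the whole list. Counting also the distal peaks of Jag1, Hes1 and Dll1, there were 16 groups of 2 or more peaks, of which 6 had 3 or 4. The pair at 15223691 to 15229273 beyond Dll1 is among them, although Ermard is the nearest gene of its lower peak. The groups of 4 were those upstream of Notch1 and at the upper end of Gpr132. After joining peaks within 10 kb, 7060 sites remained in the whole list. Of these, 1068 were groups of 2 or more, 229 (3.24%) were groups of 3 or more, and 0.949% were groups of 4 or more.

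The rest of the pathway was taken from a list of 49 genes in 7 roles that includes the 10. Of the other 39 genes, 31 (79.5%) had a peak inside or within 100 kb, against 55.2% of all protein-coding genes, and 19 (48.7%) within 25 kb, against 29.7%. The median over the 39 was 2 peaks. Their gene lengths vary widely, and longer genes have longer windows. The list was also chosen with earlier results of these data known, so these shares are a description and no test.

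Several genes for partners of RBPJ in the nucleus had peaks within 100 kb. Maml2, which encodes a Mastermind co-activator, had 9, all inside its 413.0 kb body, and was the nearest gene of all 9. Maml3 had 5 with 1 in its body, and Maml1 had 2. Spen, a co-repressor gene, had 3, and Snw1 had 1.

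Further ligand genes had fewer peaks than Jag1, Jag2 and Dll1, except Dlk2 with 4. Dll4 had 1, and Dll3 and Dlk1 had none, with the closest 131.2 and 112.4 kb away. The fourth receptor gene, Notch4, had none, and its closest peak was 372.7 kb away. Among target genes, Nrarp, which encodes a feedback inhibitor of Notch, had 5, the closest of them 0.879 kb away, from 25179466 to 25180293 on chromosome 2. Hes5 had 4, the closest 91.6 kb away, and Hes6 had 3. Hes7 had 3, one of them in its body. Hey2 and Heyl had none, like Hey1: the 3 Hey family genes had their closest peaks at 690.8, 187.1 and 252.9 kb in that order.

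Of the other genes that modify Notch sugars, Rfng had 4, Mfng 3, and Pofut1 and Poglut1 1 each. Among the protease genes, the sheddase genes Adam10 and Adam17 had 2 each. Psen2 and Psenen had 1 each, and Ncstn and Aph1a had none. Among the 11 genes of trafficking and turnover, 10 had a peak. Fbxw7, which marks the active receptor for destruction, had 5, all in its 164.2 kb body. Neurl1a also had 5. Numb, an inhibitor of Notch, had 4, as did Dtx2 and Dtx3. Numbl had 2, Itch, Mib2, Dtx1 and Dtx4 had 1 each and Mib1 had none.

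Of the 21779 protein-coding genes, 78 others had the close counts of Jag1: 2 peaks in the body, 2 inside or within 25 kb and 3 inside or within 100 kb. A peak in the body was found at 13.4% of all genes, and 3 or more within 100 kb at 20.3%. Among the 78, the 5 closest to Jag1 in length, all within 31.2 to 37.5 kb, were Galns, Rtel1, Dnajc7, Lrrc17 and Acox3. They were the nearest gene of 2, 2, 0, 2 and 2 peaks, where Jag1 was the nearest gene of 16. These genes were not matched to Jag1 in the length of the intervals beside them, which bears on the number of nearest peaks.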

How the data were processed

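Chromatin of the 2 p63 ChIP libraries, from MK1 and MK2, was sheared by Bioruptor and sequenced as 50 bp single-end reads, per the labels' protocols. Bowtie 1.1.1, SAMtools 1.1 and the build mm10 are named in the submitters' processing notes. Per the labels, the authors obtained the deposited peak positions by an IDR run over both p63 libraries. The sources used here name no peak caller or threshold, and read depth is unknown. The deposited list has 3 columns (chromosome, start, end). IDR retains peaks that both libraries support, so peaks of 1 line alone should be missing, and the edges of single-end peaks are approximate.

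Starts were made 1-based. Of 49943 gene rows on the chromosomes in RefSeq (GRCm38.p6), 340 with scaffold positions (an end below 3 Mb, except on Y) were left out, leaving 49603, of which 21779 are protein-coding. This assembly shares its coordinates with mm10. Distances are from the peak midpoint. The nearest gene is the protein-coding gene with the nearest end, and peaks were grouped where midpoints lay within 10 kb. Strand and start sites came from the RefSeq promoter table, which held 17492 of the protein-coding genes. Motifs were searched in the 250 bases before each start. Python 3.11.15, NumPy 2.4.6 and pandas 2.3.3 were used, and counting was checked on simulated positions of the peaks. No test was made, since there is 1 list without replicates or scores. Alternatives were other windows, other definitions of the nearest gene, other grouping distances, wide peaks alone and 1 motif mismatch.

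The genes named are the 10, the pathway genes and the nearest genes of their peaks, and the 5 genes most like Jag1 in peak counts and then in length. Opa1, Btbd3 and the other genes bordering an interval, and the intervals themselves, were chosen after the values were seen. A few genes of the pathway list are counted in its totals but not reported here. The members and lists were chosen with earlier results of these data known.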

Additional observations from a re-analysis of the deposited data

How the results depend on the processing

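The number of genes with a peak stayed within 1.5 times of 9 under each alternative run: it was 7 within 50 kb, 6 within 25 kb, and 9 both with any overlapping base and with peaks of at least the median width. The number of their peaks moved from 37 to 24 within 50 kb, to 12 within 25 kb and to 22 with the wider peaks alone. The median per gene moved from 3.5 to 2, 1 and 1.5 in that order. Of the other 39 pathway genes, 19 in place of 31 had a peak within 25 kb, an alternative added after the data were seen. The number of peaks nearest to one of the 10 genes was 38. It was 11 when long non-coding genes, pseudogenes and all other annotated genes could be nearest, 18 within 100 kb and 25 with the wider peaks. For Jag1 the number was 16, and 3, 3 and 10 under the same alternatives. By the nearest start site, over a table that holds 8 of the 10 genes, the numbers were 29 and 16. Of the 22 wider peaks, 10 had another wider peak within 10 kb, in place of 25 of 37. In the whole list 21.0% of the wider peaks did. Windows with a half-site were 4 in place of 1 when 1 mismatch was allowed, as were 62.1% of all windows. Of 85 values for single genes under these alternatives, 57 stayed within 1.5 times. The 57 include values that were 0 in both settings, as for Hey1, and settings that only remove peaks could not change these. No paired analysis was possible because the list was made from MK1 and MK2 together and holds no values per line. For the same reason neither line could be left out. With depth unknown, a missing peak cannot be told from one that was too weak to be called.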

Other observations

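Several peaks lay close to an end of a non-coding gene, which the counts over protein-coding genes pass over. Distances here are to the nearest end of a gene, also for a peak inside one. All 4 peaks upstream of Notch1 were within 3.47 kb of an end of the long non-coding gene Gm36171, the closest at 1.00 kb. The peak 10.3 kb from Notch3 was 0.398 kb from Gm30729. Of the 13 distal peaks of Jag1, one was 0.967 kb from Gm39944, but the 10 peaks beyond 250 kb were 56.4 to 165.1 kb from the nearest end of any annotated gene. At Hes1, the peaks at 31.2 and 40.3 kb were 5.32 and 3.17 kb from 9030404E10Rik.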
